A study of Sus scrofa with 4 samples.

Results

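The genes that supply an ovary with cholesterol were examined in pig (Sus scrofa) ovaries taken in diestrus, the luteal phase of the cycle, from wild-type (WT) sows and from sows that overexpress leptin, the hormone by which fat tissue reports its stores. The list names 36 gene symbols along the route from acetyl-CoA to cholesterol and on to its sensing, transport, storage and export, and a member is any row of the deposited table whose symbol equals one of these names. A row was found for 34 of the 36 names, of 22309 rows in all. All 34 passed the filter on low counts, which left 13937 genes. CYP51 has no row of its own because it is a synonym of CYP51A1 in RefSeq, which is on the list, and EBP matched no row by symbol.

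Each genotype had 2 libraries, made from messenger RNA of whole ovary, and values are given as WT replicates 1 and 2 followed by leptin overexpression replicates 1 and 2. The leptin sows were the second generation of crosses that began with cloned transgenic boars and Duroc/Landrace/Yorkshire sows, screened for the transgene. The promoter that drives the transgene, the age of the sows and the descent of the WT sows were not given in the sources used here. Whether the libraries of a group came from separate sows was not given either, so a p-value here reflects nothing more than the spread from library to library, which may be technical.

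LEP, which encodes leptin, was counted 0 and 3 times in the WT libraries and 55 and 124 times in the leptin libraries. Total counts ran from 16493113 to 16797511 per library. CPM below means counts per 1000000 after TMM scaling, a scaling for differences in library composition, and its factors ran from 1.34 in WT replicate 1 down to 0.809 in leptin overexpression replicate 2. STAR and CYP11A1, which start steroid synthesis, were at 7022 CPM or more and 3822 CPM or more in every library. Of the 5 adipocyte markers, which include LEP, ADIPOQ, PLIN1 and CIDEC were at 0.0653, 0.418 and 0.272 CPM or less, and FABP4, which endothelial cells and macrophages also express, was at 12.7 and 2.8 CPM in the WT libraries against 0.588 and 0.822 in the leptin libraries (edgeR adjusted p = 0.249, DESeq2 adjusted p = 0.00746); its part in the results was not tested. WT replicate 1 stood apart: mitochondrially encoded genes took 6.89% of its counts against 12.9%, 15.1% and 16.4% in the other libraries. The 4 luteal cell markers found of 5 listed summed to 11029 CPM in it against 28692, 26260 and 31797. STAR and CYP11A1, at 7022 and 3822 CPM in WT replicate 1, made up most of this sum. LHCGR was not low there, at 32.6 and 31.6 CPM in the WT libraries against 24.2 and 44 in the leptin libraries. Of the 4, 3 had a positive log2 fold change (STAR 0.86, CYP11A1 0.076 and LHCGR 0.086), and PTGFR had -0.88.

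Cells build cholesterol from acetyl-CoA through mevalonate, farnesyl diphosphate and squalene, and the first sterol, lanosterol, is then trimmed to cholesterol. When sterols run low, SREBP-2 (from SREBF2), escorted by SCAP, switches the pathway on, and INSIG proteins hold it back. When sterols are plentiful, oxysterols activate the liver X receptors (NR1H2 and NR1H3). Their target genes include ABCA1, ABCG1, APOE, MYLIP and SREBF1, which serve export, reduced uptake and fatty acid synthesis. These targets were picked from the members after their values were seen. Targets outside the members were not gathered, so no direction is given for the targets as a whole. In the ovary, luteal cells turn large amounts of cholesterol into progesterone.

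With all 4 libraries, the enzymes of synthesis had mostly higher values in leptin overexpression and the genes of export mostly lower ones, and 0 of the 34 members passed the threshold. The smallest adjusted p of a member was 0.279, of ABCA1 (edgeR's quasi-likelihood test, Benjamini-Hochberg adjustment over all genes tested, threshold 0.05), and 4 genes passed, 0.0287% of all genes tested. At an unadjusted edgeR p under 0.05 stood 6 members, SC5D with a higher value and SREBF1, MYLIP, ABCA1, ABCG1 and APOE with lower ones, against 9.36% of all genes (4.04% higher and 5.32% lower). DESeq2 called 0 members, against 2.19% of all genes. Limma-trend called 3 members on log2(FPKM + 1), SC5D, SREBF1 and APOE, against 2.95% of all genes, and 2 on log2(FPKM + 0.1), SREBF1 and APOE, against 2.88% of all genes; the median of all genes was -0.31 on the first of these scales and -0.36 on the second. The log2 fold change (leptin overexpression minus WT) was positive for 22 members and negative for 12, with a median of 0.39, against 49.3% positive, 50.7% negative and a median of -0.012 over all genes tested.

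Both leptin libraries lay above both WT libraries for 11 members and below both for 6. These were 32.4% and 17.6% of the members, against 22.2% and 22.9% of all genes tested. Neither direction of difference from the background held without WT replicate 1. WT replicate 1 weighed on the comparison. It was the lowest of the 4 libraries for 22 members (64.7%), against 28.3% of all genes, and for 20 members (58.8%) the gap between the WT libraries exceeded the difference between genotypes, against 47.6% of all genes. Without WT replicate 1 both leptin libraries exceeded the other WT library for 11 members, under the background share of 35.5%. They lay below that library for 14 members, above the background share of 37.5%. The counts without WT replicate 2 were 24 and 7 (37.1% and 36.6%). Without leptin overexpression replicate 1 they were 16 and 8 (39.4% and 40.4%), and without leptin overexpression replicate 2, 14 and 8 (31.6% and 31.9%). In FPKM, which carries no TMM scaling, 6 members were higher and 8 lower without overlap (6.85% and 39.7%). The 6 higher ones were ACAT2, HMGCS1, FDPS, SQLE, MSMO1 and SC5D. The part of luteal cell content in these results was not tested, and in whole ovary fewer cells of a type and less RNA per cell cannot be told apart.

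Of the 17 synthesis enzymes found, 15 had a positive log2 fold change and 0 passed the threshold (lowest adjusted p 0.509); for 9 both leptin libraries exceeded both WT libraries, against 22.2% of all genes. Summed over the 17 genes, the level was 3168 and 9701 CPM in the WT libraries against 10297 and 14327 in the leptin libraries. WT replicate 2 lay nearer to leptin overexpression replicate 1 than to WT replicate 1 in this sum. The median log2 fold change of the enzymes was 0.64. With WT replicate 1 left out it was 0.16, with 10 of 17 positive against 49.0% of all genes; with WT replicate 2 left out it was 1.32, with 17 of 17 positive against 49.4% of all genes. Of all members, 0 passed the threshold without WT replicate 1, where 1.07% of all genes passed, and 10 without WT replicate 2, where 4.61% passed: HMGCS1, MVK, SQLE, CYP51A1, MSMO1, SC5D and STARD4 rose and SREBF1, ABCG1 and APOE fell in that fit. It holds none of the spread within WT.

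**Figure D1:**
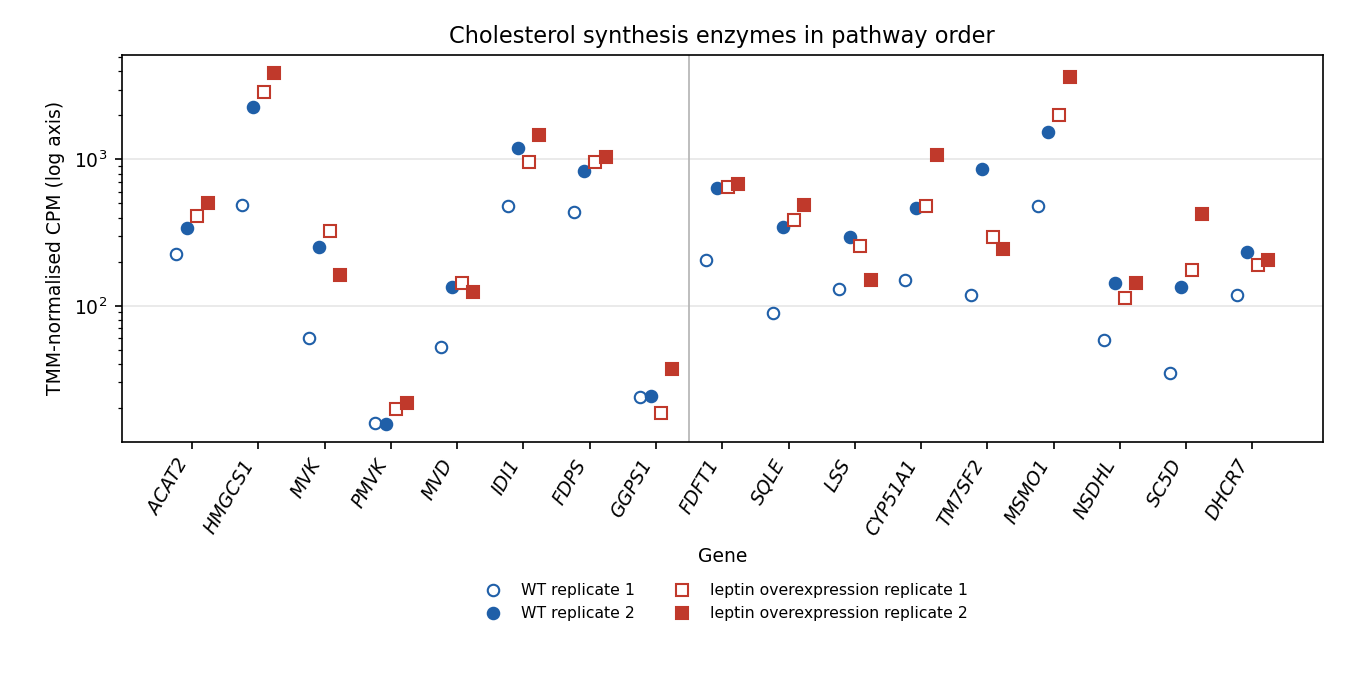
TMM-normalised CPM (log axis) of the 17 synthesis enzymes in pathway order, 1 point per library; blue circles are WT, red squares leptin overexpression, open symbols replicate 1 and filled symbols replicate 2, and the vertical line divides the mevalonate steps from those after farnesyl diphosphate. WT replicate 1 was the lowest library for 15 of the 17, and WT replicate 2 lay among or just below the leptin libraries for many.

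The route begins with ACAT2 (ENSSSCG00000004049), which joins acetyl-CoA units. It was at 227 and 338 CPM in the WT libraries against 408 and 503 in the leptin libraries (log2 fold change 0.69, SE 0.44, edgeR adjusted p = 0.613). HMGCS1 (ENSSSCG00000016872), the synthase that makes HMG-CoA, was at 491 and 2267 CPM in the WT libraries against 2885 and 3903 in the leptin libraries. Its log2 fold change of 1.30 (SE 0.73, edgeR adjusted p = 0.591) was smaller than the WT gap of 2.21 on the same scale, and the value moved to 0.56 without WT replicate 1 and to 2.76 without WT replicate 2. For both genes the leptin libraries were above the WT ones without overlap.

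The kinases and the decarboxylase that activate mevalonate showed no common direction beyond the spread. MVK, mevalonate kinase, was at 60.2 and 250.4 CPM in the WT libraries against 322 and 163 in the leptin libraries, so the leptin libraries lay on either side of WT replicate 2. PMVK, the next kinase, was at 15.9 and 15.6 CPM in the WT libraries against 19.7 and 21.8 in the leptin libraries, without overlap but with a log2 fold change of only 0.40 (SE 0.38). MVD, which yields isopentenyl diphosphate, was at 52.1 and 134 CPM in the WT libraries against 143 and 125 in the leptin libraries. IDI1, the isomerase of that unit, was at 478 and 1204 CPM in the WT libraries against 962 and 1466 in the leptin libraries, and WT replicate 2 exceeded leptin overexpression replicate 1. Without WT replicate 1, MVK, MVD and IDI1 had log2 fold changes of -0.060, -0.019 and -0.014.

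At the branch point, FDPS makes farnesyl diphosphate for sterols, and GGPS1 extends it for protein prenylation. FDPS (ENSSSCG00000006512) was at 434 and 829 CPM in the WT libraries against 967 and 1038 in the leptin libraries, without overlap (log2 fold change 0.67, SE 0.51, edgeR adjusted p = 0.661). GGPS1 was at 23.7 and 24.3 CPM in the WT libraries against 18.6 and 36.8 in the leptin libraries, and its leptin libraries lay on either side of both WT libraries. The deposited counts of ACAT2, FDPS, GGPS1, FDFT1, TM7SF2, SC5D, SREBF1, NPC1, LIPA and NR1H3 were not whole in at least 1 library, as arises where reads are divided between genes. The levels of these 10 members, 29.4% of those found against 18.7% of all rows, are thus less certain than the rest.

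After farnesyl diphosphate, FDFT1 forms squalene and SQLE (ENSSSCG00000005970) oxidises it, a slow step of the pathway. FDFT1 was at 207 and 637 CPM in the WT libraries against 652 and 684 in the leptin libraries, without overlap by a narrow margin. SQLE was at 89.6 and 343 CPM in the WT libraries against 384 and 490.0 in the leptin libraries (log2 fold change 1.01, SE 0.62, edgeR adjusted p = 0.607). For SQLE too the groups did not overlap, and WT replicate 2 lay closer to the leptin libraries than to WT replicate 1. LSS, which closes the ring to lanosterol, was at 129.9 and 297 CPM in the WT libraries against 256 and 151 in the leptin libraries, and its groups overlapped fully.

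CYP51A1, MSMO1 and SC5D catalyse oxidative steps that trim lanosterol. Their log2 fold changes lay within 1 SE of that of HMGCS1, which exceeded all 3 without leptin overexpression replicate 2 (1.07 against 0.67, 1.02 and 1.06). CYP51A1 (ENSSSCG00000015311), which takes the first methyl group off lanosterol, was at 151 and 463 CPM in the WT libraries against 484 and 1065 in the leptin libraries (log2 fold change 1.34, SE 0.64, edgeR adjusted p = 0.564). MSMO1 (ENSSSCG00000008857), which oxidises the next ones, was at 480.2 and 1527 CPM in the WT libraries against 2023 and 3665 in the leptin libraries (log2 fold change 1.50, SE 0.67, edgeR adjusted p = 0.539). SC5D (ENSSSCG00000028517), the desaturase near the end of the route, was at 34.8 and 134 CPM in the WT libraries against 175 and 424 in the leptin libraries; its log2 fold change of 1.83 (SE 0.71, edgeR adjusted p = 0.509) was the highest of the 34 with all libraries. In these 3 genes both leptin libraries exceeded both WT libraries in CPM, for CYP51A1 by a narrow margin, and leptin overexpression replicate 2 was far above replicate 1. In FPKM the groups overlapped for CYP51A1, at 199 in WT replicate 2 against 193 in leptin overexpression replicate 1. Without WT replicate 1 the log2 fold changes of CYP51A1, MSMO1 and SC5D were 0.71, 0.87 and 1.13. They were 2.33, 2.53 and 3.07 without WT replicate 2, where WT replicate 1 alone stands for WT.

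The other members found among these steps, TM7SF2, NSDHL and DHCR7, did not share that pattern, a division made after the values were seen. TM7SF2, a sterol reductase that follows CYP51A1, was at 118 and 864 CPM in the WT libraries against 293 and 246 in the leptin libraries, with WT replicate 2 above every other library (log2 fold change -0.86, SE 0.81); leaving out WT replicate 1 gave -1.70, and leaving out WT replicate 2 gave 1.17. NSDHL, which acts after MSMO1, was at 58.8 and 143 CPM in the WT libraries against 113 and 142 in the leptin libraries. DHCR7, the last reductase, was at 118 and 232 CPM in the WT libraries against 191 and 204 in the leptin libraries. For both, WT replicate 2 was above the leptin libraries, for NSDHL by a narrow margin. The row that a reference table of gene names gives as EBP (ENSSSCG00000032768), the sterol isomerase, is outside the counts above; it was at 212 and 542 CPM in the WT libraries against 586 and 568 in the leptin libraries (log2 fold change 0.61, SE 0.53, edgeR adjusted p = 0.698).

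Levels of different enzymes can be compared in FPKM, which is scaled to transcript length. The member with the highest FPKM was FDPS in WT replicate 1 (429.7), IDI1 in WT replicate 2 (722), HMGCS1 in leptin overexpression replicate 1 (720.4) and MSMO1 in leptin overexpression replicate 2 (1086). Among all 22309 rows MSMO1 ranked 263 and 108 by FPKM in WT and 94 and 68 in leptin overexpression. PMVK was the lowest synthesis enzyme in every library, at 4.38 and 3.2 FPKM in the WT libraries against 3.74 and 3.63 in the leptin libraries, although it works in series with enzymes of much higher FPKM.

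A ratio of 2 enzymes within a library does not depend on the scaling between libraries. Each enzyme on the route to cholesterol was divided by the one before it on the list, in FPKM; steps whose enzyme is not among the members found, such as that of EBP between NSDHL and SC5D, are skipped. Of these 15 ratios 5 were higher and 4 lower in both leptin libraries than in both WT libraries, and 6 overlapped. Among all pairs of tested genes with FPKM above 0 in every library, the groups did not overlap in 43.4% of ratios, and among all 136 pairs of synthesis enzymes in 45.6%. The 9 neighbouring ratios without overlap include the 8 from SQLE/FDFT1 to DHCR7/SC5D and HMGCS1/ACAT2, a split of the route made after the values were seen. CYP51A1/LSS was 2.03 and 2.75 in the WT libraries against 3.32 and 12.3 in the leptin libraries. SC5D/NSDHL was 2.21 and 3.23 in the WT libraries against 5.08 and 9.14 in the leptin libraries. DHCR7/SC5D was 3.05 and 1.68 in the WT libraries against 1.11 and 0.525 in the leptin libraries. DHCR7 was thus above SC5D in FPKM in both WT libraries and in leptin overexpression replicate 1, and below it in leptin overexpression replicate 2. MSMO1/LSS, a pair chosen after its values were seen, was 5.54 and 7.72 in the WT libraries against 11.8 and 36.2 in the leptin libraries. These ratios share genes with their neighbours, so they are not separate observations, and they rest on 2 libraries a group and were not tested.

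**Figure D2:**
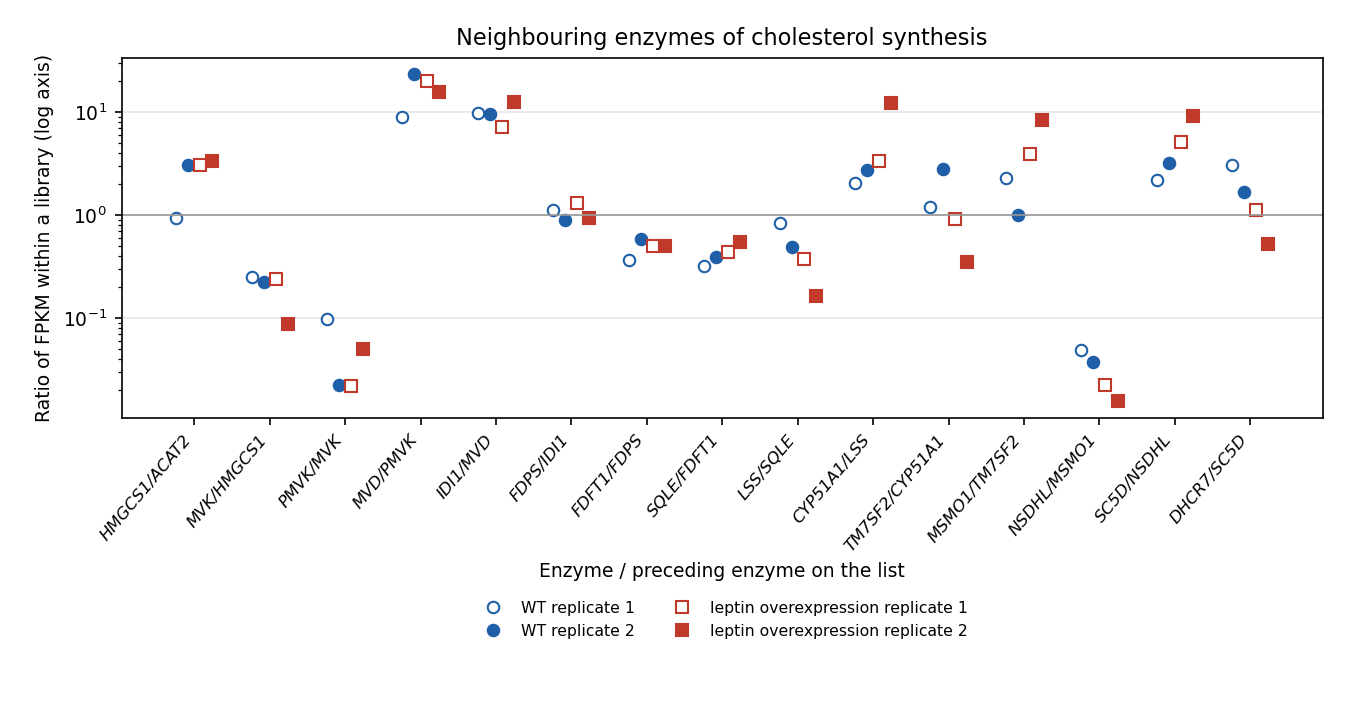
FPKM of each synthesis enzyme divided by FPKM of the enzyme before it on the list within the same library (log axis; the line marks equal FPKM), with symbols as for the plot of synthesis enzymes. The groups do not overlap in 9 of the 15 ratios, against 43.4% of ratios over all pairs of genes.

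The 6 members listed under sterol sensing also take in the regulators SREBF1 and SREBF2 and the ubiquitin ligase MYLIP. Of the 6, 1 had a positive and 5 a negative log2 fold change, and 0 passed (lowest edgeR adjusted p 0.441). Both leptin libraries were above both WT libraries for 1 and below both for 3, against 22.2% and 22.9% of all genes. SREBF1 (ENSSSCG00000033626), whose products favour fatty acid synthesis, was at 153 and 48.7 CPM in the WT libraries against 41.9 and 21.3 in the leptin libraries (log2 fold change -1.68, SE 0.59, edgeR adjusted p = 0.441). WT replicate 1 was far above the other libraries, and without it the log2 fold change was -0.64; without WT replicate 2 it was -2.30 (edgeR adjusted p = 0.0023 in that fit). SREBF2, which drives the synthesis enzymes, was at 197 and 266 CPM in the WT libraries against 211 and 95.4 in the leptin libraries, and only leptin overexpression replicate 2 lay below both WT libraries. SCAP, the escort of both, was at 1005 and 902 CPM in the WT libraries against 876 and 626 in the leptin libraries, lower without overlap by a narrow margin (log2 fold change -0.34, SE 0.47).

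INSIG1 and INSIG2, the brakes on SREBP processing, had log2 fold changes of -0.16 (SE 0.73) and 0.98 (SE 0.51). Their ratio within a library overlapped between the groups. INSIG1 was at 95.5 and 555 CPM in the WT libraries against 303 and 278 in the leptin libraries, so the WT libraries lay on either side of both leptin libraries; its log2 fold change ran from -0.95 without WT replicate 1 to 1.58 without WT replicate 2. INSIG2 was at 8.08 and 10.6 CPM in the WT libraries against 10.8 and 26.1 in the leptin libraries, without overlap only because leptin overexpression replicate 1 was marginally above WT replicate 2. MYLIP (ENSSSCG00000001063), a ubiquitin ligase that removes lipoprotein receptors from the cell surface, was at 36.4 and 19.7 CPM in the WT libraries against 14.2 and 10.01 in the leptin libraries (log2 fold change -1.21, SE 0.45, edgeR adjusted p = 0.471). Both leptin libraries were below both WT libraries, and leaving out WT replicate 1 or 2 gave -0.72 or -1.61.

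**Figure D3:**
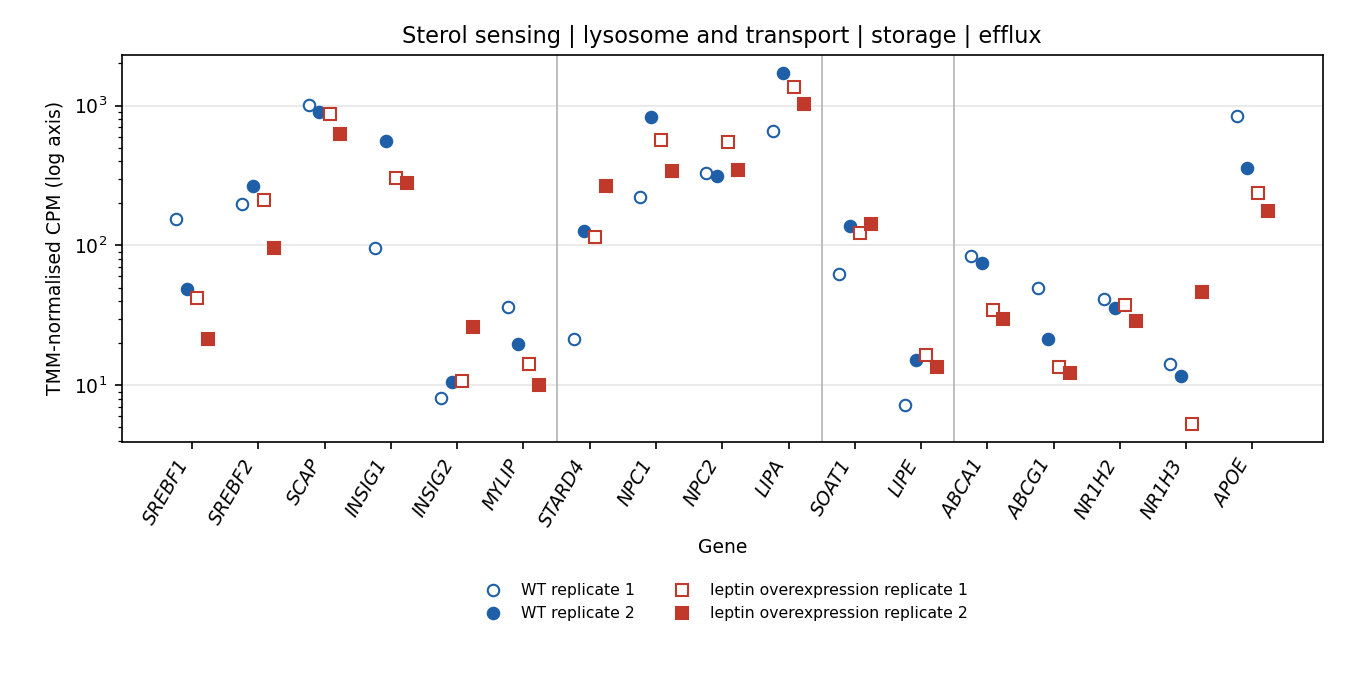
TMM-normalised CPM (log axis) of the 17 members outside synthesis, 1 point per library, with symbols as for the plot of synthesis enzymes; vertical lines divide sterol sensing, lysosome and transport, storage and release, and efflux. For ABCA1, ABCG1, APOE, MYLIP, SREBF1 and SCAP both leptin libraries lie below both WT libraries. These are 17.6% of the 34 members, against 22.9% of all genes tested. NPC1, LIPA and INSIG1 have their lowest and highest values within WT.

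Of the 4 genes of lysosomal release and transport, 0 passed, and WT held the lowest and the highest library for 2. STARD4 (ENSSSCG00000031518), a soluble carrier of cholesterol, was at 21.4 and 126 CPM in the WT libraries against 114 and 268 in the leptin libraries (log2 fold change 1.38, SE 0.83, edgeR adjusted p = 0.607), and WT replicate 2 exceeded leptin overexpression replicate 1. The log2 fold change of STARD4 was 3.12 without WT replicate 2, where WT replicate 1 alone stands for WT, and 0.57 without WT replicate 1. LIPA, the acid lipase that frees cholesterol from lipoprotein esters, was at 653 and 1715 CPM in the WT libraries against 1367 and 1025 in the leptin libraries. NPC1, which moves it out of the lysosome, was at 222 and 826 CPM in the WT libraries against 563 and 342 in the leptin libraries. NPC2, the soluble partner of NPC1, was at 331 and 314 CPM in the WT libraries against 549 and 343 in the leptin libraries; here the groups did not overlap, with WT replicate 1 and leptin overexpression replicate 2 close together. For LIPA and NPC1 the leptin values lay between those of the WT libraries.

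Storage as esters was represented by SOAT1, which esterifies cholesterol, and LIPE, the hormone-sensitive lipase that releases it. SOAT1 was at 62.9 and 139 CPM in the WT libraries against 123 and 141 in the leptin libraries, and LIPE at 7.21 and 15.3 CPM in the WT libraries against 16.5 and 13.4 in the leptin libraries. In both, WT replicate 1 was low and the other 3 libraries were close together, and the log2 fold changes of 0.39 and 0.41 were -0.091 and -0.050 without WT replicate 1.

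Of the 5 efflux members, 4 had a negative log2 fold change and 0 passed (lowest adjusted p 0.279); for 3 both leptin libraries were below both WT libraries, against 22.9% of all genes. ABCA1 (ENSSSCG00000005423), which loads cholesterol on apolipoprotein A-I, was at 84.7 and 74.4 CPM in the WT libraries against 34.8 and 29.8 in the leptin libraries (log2 fold change -1.30, SE 0.35, edgeR adjusted p = 0.279). Its WT libraries lay close together, and the value was -1.22, -1.41, -1.40 and -1.18 when WT replicates 1 and 2 and leptin overexpression replicates 1 and 2 were left out in turn. ABCG1 (ENSSSCG00000027745), which exports to high-density lipoprotein, was at 49.9 and 21.5 CPM in the WT libraries against 13.5 and 12.2 in the leptin libraries (log2 fold change -1.48, SE 0.48, edgeR adjusted p = 0.372). APOE (ENSSSCG00000003088), the apolipoprotein that carries cholesterol between cells, was at 843 and 359.6 CPM in the WT libraries against 237 and 176 in the leptin libraries (log2 fold change -1.54, SE 0.53, edgeR adjusted p = 0.419).

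For ABCG1 and APOE, WT replicate 1 was the highest library by a wide margin, and without it the log2 fold changes were -0.77 and -0.82. They were -1.98 and -2.05 without WT replicate 2, where WT replicate 1 alone stands for WT. The receptors that control these genes showed other patterns. NR1H2 was at 41.6 and 35.7 CPM in the WT libraries against 37.3 and 29.1 in the leptin libraries, with overlap. NR1H3 was at 14.2 and 11.6 CPM in the WT libraries against 5.29 and 46.4 in the leptin libraries, so the lowest and the highest library were both leptin overexpression. ABCA1, ABCG1, APOE, MYLIP and SREBF1, set together after their values were seen, are 5 of the 6 members whose leptin libraries were lower without overlap, and the sixth is SCAP.

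Macrophages also express genes of cholesterol export. Of 10 macrophage markers, 8 had a negative log2 fold change and 0 passed (lowest adjusted p 0.316), and their summed level was 465 and 633 CPM in the WT libraries against 428 and 360.4 in the leptin libraries. Their part in the values of ABCA1, ABCG1 and APOE was not tested. CD68 was at 54.4 and 31.2 CPM in the WT libraries against 16.9 and 14.5 in the leptin libraries and CD163 at 49.4 and 73 CPM in the WT libraries against 45.8 and 65.8 in the leptin libraries. Of the epithelial markers 5 of 6 were negative, with a summed level of 513 and 269 CPM in the WT libraries against 6.01 and 67.8 in the leptin libraries. OVGP1 made up most of the WT sums, at 316 and 183 CPM. EPCAM, the positive one, was at 33.8 and 7.76 CPM in the WT libraries against 2.55 and 57.1 in the leptin libraries. It made up most of the sum in leptin overexpression replicate 2. Smooth muscle markers were negative in 6 of 6, at 1391 and 1337 CPM in the WT libraries against 614 and 965 in the leptin libraries. Theca markers, 3 of 4 negative, summed to 624 and 2016 CPM in the WT libraries against 1159.7 and 676 in the leptin libraries. Endothelial markers, 5 of 6 negative, summed to 682 and 1246 CPM in the WT libraries against 845 and 403 in the leptin libraries, and WT replicate 2 was the highest library for both lists. Granulosa markers, 3 of 5 positive, summed to 618 and 533 CPM in the WT libraries against 510.4 and 329.9 in the leptin libraries; INHA, the highest of them in WT, was at 565 and 299.7 CPM in the WT libraries against 253 and 137 in the leptin libraries, while CYP19A1 was at 9.21 and 197 CPM in the WT libraries against 197 and 161 in the leptin libraries. Oocyte markers, 6 of 6 negative, summed to 142 and 23.8 CPM in the WT libraries against 21.5 and 24.3 in the leptin libraries. WT replicate 1 alone was high in this sum, and WT replicate 2 lay between the leptin libraries. By edgeR 0 of these markers passed the threshold, while DESeq2 called 4 of the epithelial markers (KRT8, KRT18, CDH1 and OVGP1), 2 of the smooth muscle markers (MYH11 and DES) and 0 of the macrophage ones.

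**Figure D4:**
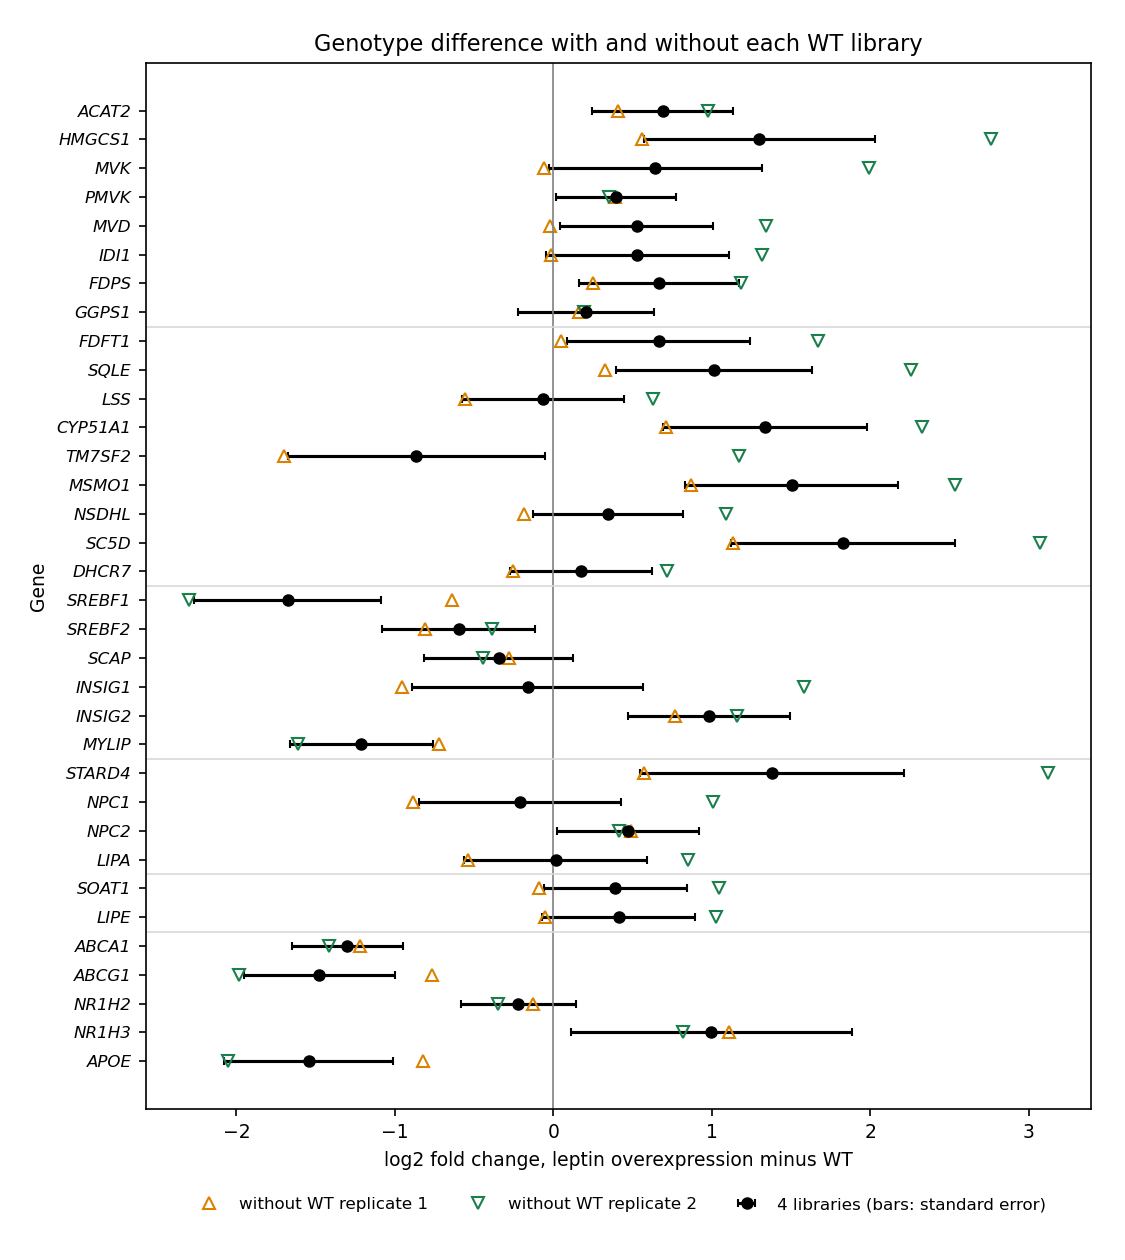
Log2 fold change of each member (leptin overexpression minus WT) from edgeR's fit of the 4 libraries, with standard error bars, and from the fits without WT replicate 1 (upward triangles) and without WT replicate 2 (downward triangles); horizontal lines divide the roles. For most synthesis enzymes the triangles lie far apart, as for SC5D at 1.13 and 3.07, whereas ABCA1 has -1.22 and -1.41.

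Other genes of cholesterol handling were counted from a list of 37, of which 35 had a row and 32 were tested. Positive log2 fold changes were found for 18 and negative ones for 14, with a median of 0.043, and 0 passed edgeR's test (lowest adjusted p 0.42; 3 at an unadjusted p under 0.05, NCEH1, STARD3 and LRP8, and 1 called by DESeq2, STARD3). For 7 (21.9%) both leptin libraries were above both WT libraries and for 2 (6.25%) below, against 22.2% and 22.9% of all genes. NCEH1, which hydrolyses cholesteryl esters, was at 36.7 and 90.9 CPM in the WT libraries against 133 and 233 in the leptin libraries (log2 fold change 1.52, SE 0.52, edgeR adjusted p = 0.42). LRP8, a lipoprotein receptor, was at 197 and 393 CPM in the WT libraries against 169 and 61.6 in the leptin libraries (log2 fold change -1.36, SE 0.58, edgeR adjusted p = 0.524). For both the groups did not overlap. STARD3, which tethers late endosomes to the endoplasmic reticulum and moves cholesterol between them, was counted 138 and 110 times in WT against 0 and 15 times in leptin overexpression (DESeq2 adjusted p = 0.0483, edgeR adjusted p = 0.433); it is below the mean level set for naming and was chosen after its values were seen. ERG28, a scaffold for MSMO1 and NSDHL, was at 61.9 and 145 CPM in the WT libraries against 193 and 202 in the leptin libraries, and SCP2, a lipid transfer protein, at 71.5 and 425 CPM in the WT libraries against 111 and 135 in the leptin libraries.

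The most abundant of these by FPKM was SCARB1, the receptor for high-density lipoprotein, at 1327 and 2357 FPKM in the WT libraries against 2204 and 1483 in the leptin libraries, above every member in each library. PLTP, which transfers phospholipids between lipoproteins, was at 160.4 and 567 FPKM in the WT libraries against 469.9 and 219 in the leptin libraries and APOA1, the main protein of high-density lipoprotein, at 153 and 386 FPKM in the WT libraries against 163 and 131 in the leptin libraries. VLDLR, a lipoprotein receptor, was at 76.7 and 96.5 FPKM in the WT libraries against 95.7 and 91.2 in the leptin libraries. WT replicate 1 was the lowest library in FPKM for SCARB1, PLTP and VLDLR, and not for APOA1.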

How the data were processed

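The authors deposited expected counts per gene, estimates that need not be whole and are not scaled to depth, and FPKM values, scaled by the authors to transcript length and library size, per the file headers. Without giving roles, the submitters' processing notes list RSEM, HISAT2, Bowtie2 2.2.8, StringTie 1.3.1, fastp 0.18.0, edgeR 3.32.0 and DESeq2. Genome build and use of strand were not given in the sources used here; no coordinates are reported, and reads shared by overlapping or antisense genes cannot be told apart. The column of each control number was taken as the WT sample of that number.

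Counts were rounded, filtered with filterByExpr, scaled with TMM and tested by quasi-likelihood in edgeR 4.0.16 (limma 3.58.1, DESeq2 1.42.0, R 4.3.3; robust, genotype as the only term, 2 residual degrees of freedom), adjusted by Benjamini-Hochberg over all 13937 genes. The script was tested on simulated data. SE was obtained as the size of the log2 fold change over the root of F. Members are named by role; of the other pathway genes, the 6 with the highest mean FPKM and the 4 with the largest change among those with a mean of at least 5 CPM are named, except 2 that are not reported here. The members and lists were chosen with earlier results of these data known. Alternatives were other factors, filters and tools, FPKM with pseudocounts of 1 and 0.1, a replicate block and each library left out.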

Additional observations from a re-analysis of the deposited data

How the results depend on the processing

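Of 476 values of single members under the alternative settings, 420 kept their direction and side of the threshold, 15 kept the direction and passed, and 41 changed sign; 18 of 34 members never changed sign, among them ABCA1, ABCG1, APOE, MYLIP, SREBF1, HMGCS1, SQLE, CYP51A1, MSMO1, SC5D and STARD4. The number of members called was 0 with the other factors, filters, DESeq2, limma-voom, the replicate block and FPKM without a filter, and 3 or 2 with limma-trend on log2(FPKM + 1) or log2(FPKM + 0.1). With each library left out it was 0 to 10, the 10 being without WT replicate 2. The median of the members was -0.018 with log2(FPKM + 1) and -0.019 with log2(FPKM + 0.1), where that of all genes was -0.31 and -0.36, and 0.30 with upper-quartile factors, where that of all genes was -0.11; it was -0.055 to 1.02 with libraries left out, lowest without WT replicate 1. In FPKM, 6 members were higher and 8 lower without overlap, against 6.85% and 39.7% of all genes. With libraries left out the members higher without overlap were 11 to 24 (background 31.6% to 39.4%) and those lower 7 to 14 (31.9% to 40.4%), the extremes being without WT replicate 2 (24 higher, 7 lower) and without WT replicate 1 (11 higher, 14 lower).

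Genes called higher and lower over the whole table were 7 and 4 with upper-quartile factors, 84 and 168 with no filter, 100 and 205 with DESeq2, 1 and 0 with limma-voom, 89 and 261 with log2(FPKM + 1), 87 and 255 with log2(FPKM + 0.1), 0 and 0 with FPKM and no filter, and 0 to 258 higher and 0 to 423 lower with libraries left out, where a lone library is assumed to vary like the other group. With the replicate number as a block they were 11 and 12, and with crossed pairs, tried after the data were seen because same-numbered libraries deviated in opposite directions (correlation -0.10 over 13937 genes), 41 and 110. The block called 0 members and changed the sign of LSS (0.0021), INSIG1 (0.33) and NPC1 (0.033). Limma-voom gave 0.30 for INSIG1 and 0.0060 for NPC1, and upper-quartile factors -0.053 for LIPA.

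With log2(FPKM + 1), the same with no filter, and log2(FPKM + 0.1), members that changed sign were PMVK (-0.021, -0.021 and -0.023), GGPS1 (-0.25, -0.25 and -0.29), DHCR7 (-0.16), NPC2 (-0.016), LIPA (-0.24) and NR1H3 (-0.16, -0.16 and -0.25). The FPKM values carry no TMM scaling. With libraries left out, values that changed sign ran from -0.060 to 1.99 for MVK, from -0.019 to 1.34 for MVD, from -0.014 to 1.32 for IDI1, from -0.35 to 0.63 for GGPS1, from -0.56 to 0.63 for LSS, from -1.70 to 1.17 for TM7SF2, from -0.18 to 1.09 for NSDHL, from -0.25 to 0.71 for DHCR7, from -0.95 to 1.58 for INSIG1, from -0.88 to 1.00 for NPC1, from -0.54 to 0.85 for LIPA, from -0.091 to 1.04 for SOAT1, from -0.050 to 1.03 for LIPE and from -1.27 to 1.86 for NR1H3. The cause of these changes was not tested beyond what leaving out a library shows. Depth limits no member, since each had at least 81 counts in every library; the 2 libraries per group limit the precision.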

Other observations

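Pairs of related genes on the list, compared in FPKM within each library, gave overlapping groups in 5 of 5 cases. SREBF1/SREBF2, the ratio of the regulator of fatty acid synthesis to that of cholesterol synthesis, was 0.787 and 0.186 in the WT libraries against 0.201 and 0.226 in the leptin libraries, so WT replicate 1 stood apart from the other 3 libraries. INSIG2/INSIG1 was 0.0954 and 0.0206 in the WT libraries against 0.038 and 0.0987 in the leptin libraries, with the highest values in WT replicate 1 and leptin overexpression replicate 2. NR1H3/NR1H2 was 0.312 and 0.258 in the WT libraries against 0.121 and 1.1 in the leptin libraries, and NR1H3 exceeded NR1H2 in leptin overexpression replicate 2 alone. ABCG1/ABCA1 was 0.969 and 0.474 in the WT libraries against 0.638 and 0.667 in the leptin libraries, and ABCG1 was the lower of the pair in every library. GGPS1/FDPS, the branch to prenylation over that to sterols, was 0.0229 and 0.0116 in the WT libraries against 0.00759 and 0.014 in the leptin libraries.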
